A study of Mus musculus with 12 samples.

Results

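The mouse oligoadenylate synthetase genes examined here are Oas1a, Oas1b, Oas1g, Oas2, Oas3, Oasl1 and Oasl2. They were chosen by gene symbol, are 7 of the 29462 genes in the deposited expression table, and each stands on 1 row. Expression was measured by RNA-seq of polyadenylated RNA in primary smooth muscle cells of the mouse aorta. One group of 6 libraries came from C57BL/6J mice (CSE WT, below WT) and the other 6 from mice with a global knockout of CSE, cystathionine gamma-lyase, an enzyme that makes hydrogen sulfide and is encoded by Cth (CSE KO, below KO). Both groups had received Ang II (angiotensin II, a vasoconstrictor peptide) at 1 uM for 24 h, so no untreated cells enter the comparison. The strain background of the knockout, the age and sex of the animals, and whether the 6 libraries of a genotype are separate animals or cultures are not stated in the labels; p-values therefore refer only to the spread among the sequenced libraries, and this may be technical.

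Oligoadenylate synthetases are cytosolic sensors of double-stranded RNA. On binding it, the active enzymes join ATP into short chains of adenylate with an unusual 2′-5′ linkage (2-5A), and 2-5A acts as a messenger that leads to the cutting of cellular and viral RNA and so limits virus growth. The genes are classic targets of interferon: the receptor Ifnar1/Ifnar2 acts through the kinases Jak1 and Tyk2 on a complex that includes Stat2 and Irf9 and binds an interferon-stimulated response element (ISRE) near the start of such genes. The mouse family is larger than the human one because Oas1 was duplicated several times. Oas1a and Oas1g belong to this Oas1 group, as does Oas1b, whose protein is cut short by a stop codon in many laboratory strains and whose intact form is known for resistance to flaviviruses. Oas2 and Oas3 carry repeated synthetase units, and the Oasl proteins carry ubiquitin-like domains at their end: Oasl2 makes 2-5A, while Oasl1 is known as a repressor of Irf7 translation.

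All 7 genes lie on chromosome 5 (positions are those of GRCm38, GENCODE M21; the table itself has no coordinates). Oasl2 (ENSMUSG00000029561, 114896936 to 114912234, plus strand) and Oasl1 (ENSMUSG00000041827, 114923240 to 114937915, plus strand) are neighbours 11 kb apart. The others form a cluster 5.79 Mb further on, which spans 177.2 kb from Oas2 to Oas1a. It holds Oas2 (ENSMUSG00000032690, 120730333 to 120749853, minus strand), Oas3 (ENSMUSG00000032661, 120753098 to 120777661, minus strand) and Oas1b (ENSMUSG00000029605, 120812635 to 120824163, plus strand, annotated as a polymorphic pseudogene). At its far end are Oas1g (ENSMUSG00000066861, 120876142 to 120887613, minus strand) and Oas1a (ENSMUSG00000052776, 120896256 to 120907521, minus strand). Oasl1 overlaps the antisense gene Gm13822, and the unclassified gene Gm43068 lies across Oas2 on the other strand, so reads of these pairs can be told apart only if strand was used in counting, on which the sources used here are silent.

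RefSeq promoter windows of GRCm38.p6, from 250 bases before to 50 bases after the annotated start, were found for 5 of the 7 genes, Oas1a, Oas1g, Oas3, Oasl1 and Oasl2, and for the paralog Oas1c. They were searched on both strands for the ISRE core, a pair of GAAA blocks with any 2 bases between them, and for the gamma-activated site TTCNNNGAA, an element of the response to interferon gamma. Stretches of 60 bases are shown for these 6 genes, so that the letters of windows with and without an ISRE core can be compared; each reads 5′ to 3′ in the direction of its gene, and capitals mark matches to the ISRE core.
Oas1a (chr5:120907526-120907585, minus strand): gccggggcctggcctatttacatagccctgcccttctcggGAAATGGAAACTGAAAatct
Oas1g (chr5:120887614-120887673, minus strand): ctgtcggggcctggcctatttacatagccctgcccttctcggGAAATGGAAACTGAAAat
Oas1c (chr5:120812595-120812654, minus strand): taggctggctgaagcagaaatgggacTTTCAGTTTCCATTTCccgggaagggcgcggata
Oas3 (chr5:120777700-120777759, minus strand): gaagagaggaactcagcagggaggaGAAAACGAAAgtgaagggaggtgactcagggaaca
Oasl2 (chr5:114896874-114896933, plus strand): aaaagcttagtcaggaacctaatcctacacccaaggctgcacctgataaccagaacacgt
Oasl1 (chr5:114923180-114923239, plus strand): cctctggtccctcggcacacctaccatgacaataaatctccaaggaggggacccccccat

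Oas1a and Oas1g carried the same pair of overlapping ISRE cores just before the start, at bases -20 to -11 and -14 to -5 in Oas1a and at -18 to -9 and -12 to -3 in Oas1g. The printed stretches of Oas1a and Oas1g share an unbroken run of 56 bases, and their full windows were 85.3% identical. Together the overlapping cores make the 16-base run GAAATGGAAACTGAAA, which on either strand was found in 7 of 32851 promoter windows, those of Oas1a, Oas1g, Oas1c, Apol9a and Apol9b. In the Oas1c window it lies on the opposite strand (TTTCAGTTTCCATTTC), at bases -114 to -99. Oas1c and Oas1b are transcribed away from each other from starts 121 bases apart, so the same run, from 120812613 to 120812628, also lies 22 to 7 bases before the annotated start of Oas1b and reads in the direction of Oas1b. Oas3 held 1 ISRE core, at -75 to -66, Oas1a held 1 gamma-activated site, at -98 to -90, and the windows of Oasl1 and Oasl2 held no match to either motif. Of all promoter windows 3.44% held an ISRE core, 0.225% held 2 or more and 8.3% held a gamma-activated site. A match describes letters only and does not show binding.

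**Figure D1:**
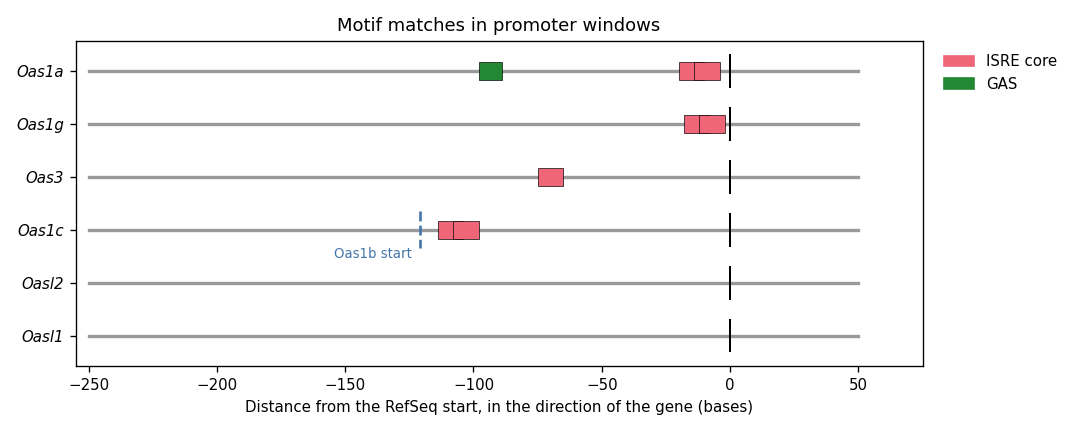
Promoter windows of Oas1a, Oas1g, Oas3, Oas1c, Oasl2 and Oasl1, as distance in bases from the RefSeq start (black tick), in the direction of each gene; boxes are matches to the ISRE core (red) and the gamma-activated site (GAS, green) on either strand, and the dashed blue line is the annotated start of Oas1b. The paired ISRE cores lie next to the start in Oas1a and Oas1g and between the starts of Oas1c and Oas1b, and Oasl2 and Oasl1 have none.

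Before the results, 3 features of the libraries bear on all of them. Cth itself was at most 0.08 FPKM (the deposited unit, in which fragment numbers are divided by gene length and library size) in WT and at most 0.02 in KO, so its level did not check the genotype labels. Within a genotype, libraries correlated at 0.992 to 0.995 across genes in WT and at 0.993 to 0.995 among KO replicates 1 to 4, but at 0.947 to 0.96 between KO replicates 1 to 4 and KO replicates 5 and 6, which stand apart and are given separately below. Of the smooth muscle markers Acta2 was above 75 FPKM in all libraries and Smtn at 8.81 to 20.53, while Myh11 did not pass 0.03. Tagln, Cnn1, Lmod1, Myocd and Des did not pass 1.32 FPKM in any library. Mean levels of Tagln, Cnn1 and Lmod1 were 0.153, 0.00833 and 0.0333 FPKM in WT and 0.695, 0.135 and 0.627 in KO. Xist was at 0.01 to 0.04 FPKM in WT and 0.31 to 3.53 in KO. The Y-linked genes Ddx3y, Uty, Kdm5d and Eif2s3y were lower in KO but present in every library. Ddx3y, for example, was at 9.87 to 11.81 FPKM in WT and 3.49 to 6.78 in KO. Genotypes differed across the table: in limma on log2(FPKM + 1), with p-values adjusted by Benjamini-Hochberg over the 11831 genes that reached 1 FPKM in 6 or more libraries, 7515 genes (63.5%) passed 0.05, 32.6% higher and 30.9% lower in KO. FPKM of a gene depend on what else the library holds, and in bulk RNA fewer expressing cells and less RNA per cell cannot be told apart.

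Oas1a, Oas1b, Oas1g, Oas2, Oas3 and Oasl2 were higher in KO, and in each of these 6 genes all 6 KO values lay above all 6 WT values. Across the table this held for 13.7% of genes above 0 in at least 1 library, and for 13.9% of genes with a mean of 0.05 to 1 FPKM that were too low for the limma fit. Oasl1 was near 0 in both genotypes and its values overlapped. Oas1a was the only member with at least 1 FPKM in 6 libraries, and it reached that through the KO libraries alone. The other 6 had an exact permutation test, two-sided, in which every way of assigning the 12 libraries to genotypes was counted (n = 6 each); its smallest possible p is 0.00216, and p-values were adjusted over the 17229 genes below the limma threshold. Of those genes, 7.42% passed the adjusted exact test as higher in KO and 3.6% as lower; before adjustment 12.7% passed as higher, and 23.6% of those with a mean of 0.05 to 1 FPKM.

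Oas1a was the most abundant member in KO. Its level was 0.32, 0.27, 0.29, 0.19, 0.37 and 0.30 FPKM in WT replicates 1 to 6 and 8.78, 7.20, 6.5, 7.13, 5.35 and 4.38 FPKM in KO replicates 1 to 6. The lowest KO library thus stood well above the highest WT library, with KO replicate 1 highest and KO replicates 5 and 6 lowest. The mean went from 0.29 ± 0.0597 to 6.56 ± 1.54 FPKM (SD, n = 6 each), which is 22.6-fold, and the difference on the log2(FPKM + 1) scale was 2.53 ± 0.12 (SE, limma adjusted p = 7.2e-10). Against WT the mean of KO replicates 1 to 4 was 25.5-fold higher and that of KO replicates 5 and 6 was 16.8-fold higher.

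Oas1g, the close copy of Oas1a, was detected at 0.03, 0.05, 0.04 and 0.04 FPKM in WT replicates 1 to 4 and listed at 0 in WT replicates 5 and 6. In KO replicates 1 to 6 it was at 0.90, 0.71, 0.63, 0.66, 0.58 and 0.38 FPKM. Its order over the KO libraries was close to that of Oas1a, with the highest value in KO replicate 1 and the lowest in KO replicate 6. The mean went from 0.0267 ± 0.0216 to 0.643 ± 0.17 FPKM, a difference of 0.67 on the log2(FPKM + 1) scale (exact permutation p = 0.00216, adjusted 0.022). GENCODE transcripts of 1885 bases for Oas1a and 1977 for Oas1g were 90.6% identical, and 730 of 1786 stretches of 100 bases of Oas1a (40.9%) also occur in Oas1g. The sources used here do not say how the authors assigned reads that match both, so the split between Oas1a and Oas1g is uncertain. In KO the ratio of Oas1a to Oas1g was 9.22 to 11.5 in all 6 libraries, and in the 4 WT libraries with a value it was 4.75 to 10.7. No such shared stretch was found for Oas1b, Oas2, Oas3, Oasl1 or Oasl2.

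Oas1b was the most abundant member in WT by mean level. It was at 0.42, 0.39, 0.27, 0.13, 0.41 and 0.40 FPKM in WT replicates 1 to 6 and at 1.11, 0.85, 0.66, 0.66, 0.63 and 0.64 FPKM in KO replicates 1 to 6. The highest WT value and the lowest KO value lay closer together than in Oas1a, but did not cross. The mean rose 2.25-fold, from 0.337 ± 0.115 to 0.758 ± 0.191 FPKM (difference of 0.39 on the log2 scale, exact permutation p = 0.00216, adjusted 0.022). The ratio of Oas1a to Oas1b was 0.692 to 1.46 in the WT libraries and 6.84 to 10.8 in the KO libraries, ranges that did not overlap.

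Oas2 was at 0.10, 0.06, 0.11, 0.11, 0.06 and 0.09 FPKM in WT replicates 1 to 6 and at 2.00, 1.70, 1.5, 1.87, 0.62 and 1.08 FPKM in KO replicates 1 to 6. KO replicate 5 was the lowest of its group, yet above every WT library. The mean rose 16.5-fold, from 0.0883 ± 0.0232 to 1.46 ± 0.523 FPKM (difference of 1.15 on the log2 scale, exact permutation p = 0.00216, adjusted 0.022), and was 9.62-fold above WT in KO replicates 5 and 6. Oas3, the largest synthetase, was listed at 0 in WT replicates 1, 2, 5 and 6 and at 0.01 FPKM in WT replicates 3 and 4. Its KO values of 0.13, 0.14, 0.13, 0.13, 0.15 and 0.13 FPKM were all higher and nearly equal (exact permutation p = 0.00216, adjusted 0.022). Oas3 differed from the members above in that KO replicates 5 and 6 were not low: their mean was 106% of that of KO replicates 1 to 4, against 65.7% for Oas1a. The difference between these percentages was not tested, and at 2 deposited decimals a step of 0.01 FPKM is a sizeable part of each Oas3 value.

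Oasl2 was at 0.09, 0.03, 0.07, 0.10, 0.11 and 0.22 FPKM in WT replicates 1 to 6 and at 2.35, 1.65, 1.40, 1.88, 0.57 and 0.53 FPKM in KO replicates 1 to 6. The KO libraries fell into a high set, replicates 1 to 4, and a low pair, replicates 5 and 6, both above WT. The mean rose 13.5-fold, from 0.103 ± 0.0638 to 1.40 ± 0.727 FPKM (difference of 1.06 on the log2 scale, exact permutation p = 0.00216, adjusted 0.022); the rise was 17.6-fold in KO replicates 1 to 4 and 5.32-fold in KO replicates 5 and 6. When any 1 WT library was left out, Oasl2 missed the adjusted threshold (exact permutation, adjusted p = 0.06 to 0.061). Its neighbour Oasl1 was at 0, 0, 0.05, 0.02, 0.07 and 0 FPKM in WT and 0.18, 0.07, 0.05, 0.06, 0.02 and 0.08 FPKM in KO replicates 1 to 6. All KO libraries but replicates 1 and 6 lay within the range of WT. The means were 0.0233 ± 0.0301 and 0.0767 ± 0.0547 FPKM, and the difference did not pass after adjustment (exact permutation p = 0.0433, adjusted 0.22).

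**Figure D2:**
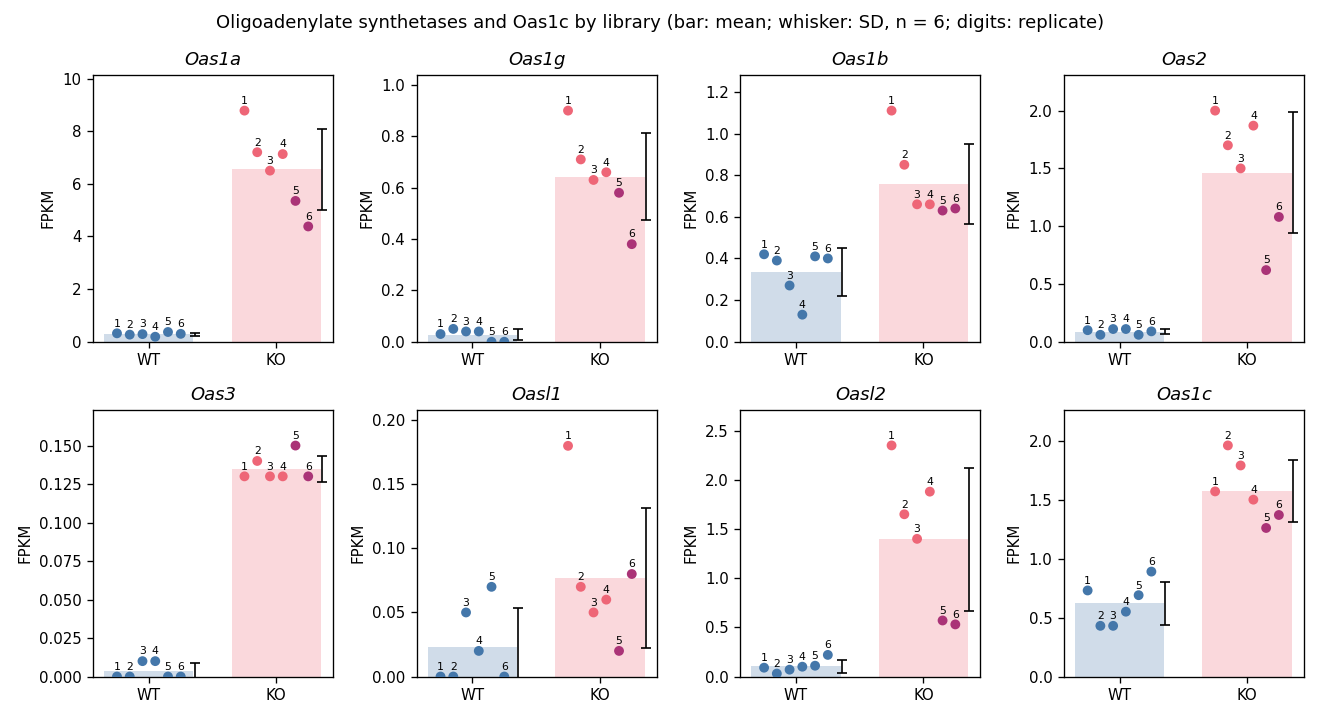
FPKM of the 7 oligoadenylate synthetase genes and of their paralog Oas1c in each library (points, numbered by replicate; blue WT, red KO replicates 1 to 4, purple KO replicates 5 and 6); bars are means and whiskers the SD over 6 libraries, with a scale of its own for each gene. KO points lie above all WT points in Oas1c and in 6 of the 7 genes, and overlap them in Oasl1.

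The authors' deposited table marks Oas1a, Oas1b, Oas1g, Oas2, Oas3 and Oasl2 as significant and Oasl1 as not significant (q-value 0.22). In the authors' deposited table the log2 ratio of WT over KO was -4.51 for Oas1a, -4.56 for Oas1g, -1.17 for Oas1b, -4.08 for Oas2, -5.86 for Oas3 and -3.74 for Oasl2. With all 29060 genes above 0 in some library fitted in limma, the same 6 genes passed an adjusted p of 0.05, with values from 7.7e-09 for Oas3 to 0.0019 for Oas1b, and Oasl1 did not (0.11). In that fit 19.1% of genes passed as higher in KO.

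The make-up of the family differed between the genotypes. In KO the order of mean FPKM, a unit already scaled by gene length, was Oas1a, Oas2, Oasl2, Oas1b, Oas1g, Oas3 and Oasl1. Oas1a did not overlap Oas2, and Oas1g did not overlap Oas3, whereas Oas2 and Oasl2, Oasl2 and Oas1b, Oas1b and Oas1g, and Oas3 and Oasl1 overlapped over the KO libraries. In WT the order was Oas1b, Oas1a, Oasl2, Oas2, Oas1g, Oasl1 and Oas3, with Oas1b and Oas1a overlapping. The summed level of the 7 genes was 0.60 to 1.02 FPKM in WT (0.872 ± 0.161) and 7.22 to 15.4 FPKM in KO (11 ± 3.07), 12.7-fold higher. Oas1a made up 29.7% to 36.3% of this sum in WT and 56.8% to 67.6% in KO. Oas1b made up 21.7% to 48.8% in WT and 5.33% to 8.86% in KO, and Oas2 held 5.88% to 18.3% in WT and 7.83% to 15.1% in KO. Oasl2 held 12.9% to 15.2% in KO replicates 1 to 4 but 7.2% and 7.34% in KO replicates 5 and 6. WT shares rest on values of a few hundredths of an FPKM and are correspondingly coarse.

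**Figure D3:**
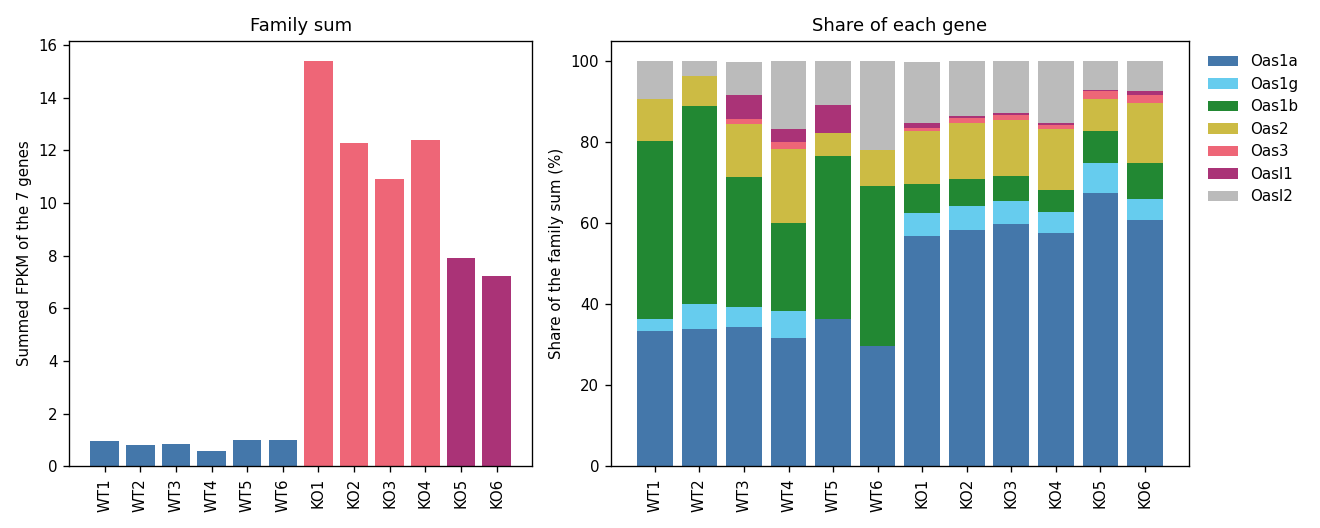
Left, summed FPKM of the 7 genes in each library (blue WT, red KO replicates 1 to 4, purple KO replicates 5 and 6); right, the share of each gene in that sum, in percent. The sum is at most 1.02 FPKM in WT and at least 7.22 in KO, and the Oas1a share is 29.7% to 36.3% in WT and 56.8% to 67.6% in KO.

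Within KO the members varied together in part. KO replicate 1 was the highest KO library in 6 of the 7 genes, Oas3 being the exception. In 5 of 7 genes (Oas1a, Oas1b, Oas1g, Oas2 and Oasl2) KO replicates 5 and 6 were both below all of KO replicates 1 to 4. This held for 19.7% of all genes above 0, for 30.4% of the 3977 genes whose KO values all lay above WT, and for 11 of 20 other listed interferon-stimulated genes. The drop was uneven: the ratio of Oas1a to Oasl2 was 3.74 to 4.64 in KO replicates 1 to 4 but 9.39 in KO replicate 5 and 8.26 in KO replicate 6. The ratio of Oas1a to Oas2 was 3.81 to 4.39 in KO replicates 1 to 4, 8.63 in KO replicate 5 and 4.06 in KO replicate 6. KO replicates 5 and 6 differed from the others in much else, for example in the proliferation gene Mki67, at 31.46 and 119.95 FPKM against 14.18 to 18 in KO replicates 1 to 4; the part of this in the levels of the synthetases was not tested.

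**Figure D4:**
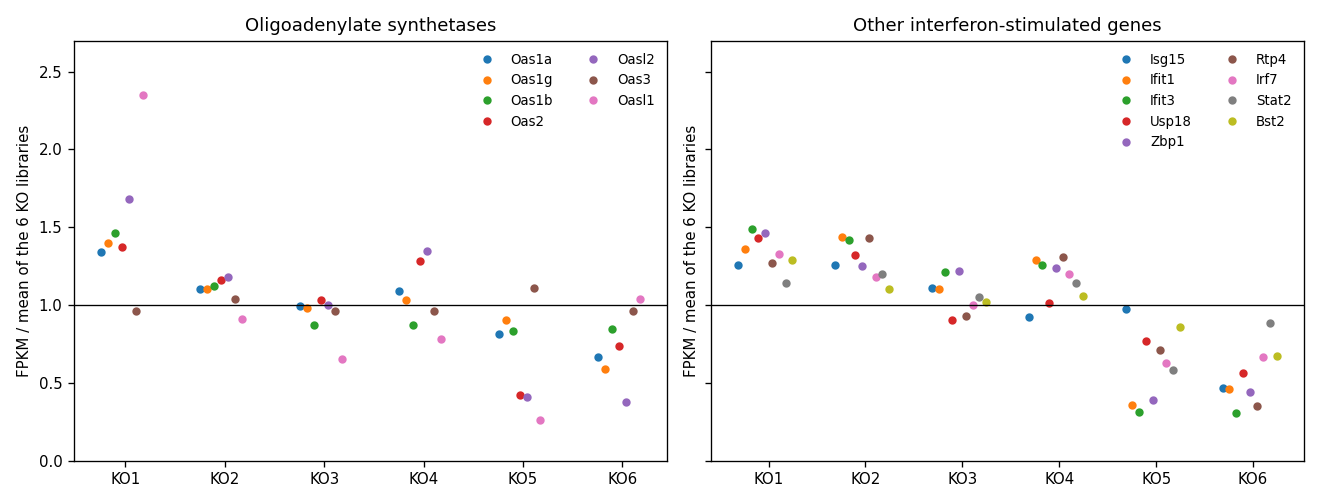
FPKM of each gene in KO replicates 1 to 6 divided by its mean over these 6 libraries, which is the horizontal line. On the left are the 7 oligoadenylate synthetase genes, and on the right a selection of 9 other genes of the interferon response. The selection does not stand for the whole list: KO replicates 5 and 6 were both below KO replicates 1 to 4 in 11 of 20 other listed interferon-stimulated genes. Samhd1, which is not drawn, was at 1.19 and 1.11 in KO replicates 5 and 6. KO replicate 1 is the highest in 6 of the 7 synthetase genes, while Oas3 stays near its mean in all libraries and the Oasl2 points of KO replicates 5 and 6 lie far below the line.

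After the mean of each genotype was subtracted, so that the difference between genotypes plays no part, log2 levels of Oas1a over the 12 libraries followed those of Oasl2 (Pearson r = 0.933) and Oas1g (0.903) most closely among the members, then Oas2 (0.77), Oas1b (0.687) and Oasl1 (0.532), and not Oas3 (-0.273). Outside all lists the 10 tested genes most like Oas1a by this measure had r from 0.938 to 0.954. They were Ube2q2, Nelfb, Rsl1, Cnpy2, Ifi27l2a, Tmem39a, Nicn1, 1110032A03Rik, Gstt3 and Shisa5. Ifi27l2a, an interferon-induced gene, went from 1.85 FPKM in WT to 11.9 in KO (r = 0.944). Without the libraries with the lowest and highest Oas1a residual, KO replicates 6 and 1, r was 0.885 for Ube2q2 and 0.788 for Ifi27l2a. These correlations share the libraries and their scaling and are a description.

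Of the other Oas1 paralogs in the table, Oas1c rose and 2 were close to 0. Oas1c, which shares its start region with Oas1b, was at 0.73, 0.43, 0.43, 0.55, 0.69 and 0.89 FPKM in WT and 1.57, 1.96, 1.79, 1.5, 1.26 and 1.37 FPKM in KO replicates 1 to 6. These values did not overlap, and the mean rose 2.54-fold from 0.62 ± 0.183 to 1.57 ± 0.261 FPKM (log2 change 0.67 ± 0.087 SE, limma adjusted p = 1.7e-05). Oas1c was above Oas1b in every library, by 1.1 to 4.23 times in WT and 1.41 to 2.71 times in KO. Like Oas1a, Oas1c reached 1 FPKM in 6 libraries through the KO libraries alone. Oas1c is overlapped by the antisense gene Gm43069. Oas1e was listed at 0 except for 0.1 FPKM in KO replicate 6, and Oas1f did not pass 0.04 FPKM. Oas1d and Oas1h had no row under these symbols in the deposited table.

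Downstream of the synthetases, genes tied to the turnover or effect of 2-5A moved in different directions. Of 3 such genes tested in limma 1 was higher, 1 was lower and 1 did not pass. Over all genes tested 32.6% were higher and 30.9% lower, and so few genes cannot be told apart from these shares. Pde12, a phosphodiesterase that breaks down 2-5A, rose from 2.24 ± 0.289 to 3.0 ± 0.67 FPKM (limma adjusted p = 0.019), with KO replicate 5 highest at 4.3. Akap7, an anchoring protein with a related phosphoesterase activity, fell from 2.44 ± 0.21 to 1.47 ± 0.604 FPKM (limma adjusted p = 0.0091); it was at 1.80 to 1.9 FPKM in KO replicates 1 to 4, while KO replicates 5 and 6 held 0.93 and 0.49. Abce1, a ribosome recycling factor also tied to the 2-5A pathway, was at 24.2 ± 1.67 and 21.1 ± 3.28 FPKM and did not pass (limma adjusted p = 0.064), but passed as lower without KO replicate 5 (0.0015) and without WT replicate 6 (0.047). Enpp1, a surface enzyme that also splits 2-5A, rose 5.2-fold from 0.0817 ± 0.0462 to 0.425 ± 0.174 FPKM (exact permutation p = 0.00216, adjusted 0.022). The rise was 6.55-fold in KO replicates 1 to 4 and 2.51-fold in KO replicates 5 and 6. KO replicate 6, at 0.16 FPKM, was just above the highest WT value of 0.15.

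Among the other listed genes of double-stranded RNA sensing, most called changes were small and Zbp1 had the largest. Of 12 listed genes 9 were tested in limma, where 5 were higher, 2 lower and 2 did not pass, with a median log2 change of 0.19; over all genes tested 32.6% were higher, 30.9% lower and the median was 0.01. Zbp1, which binds nucleic acid in the Z form and starts cell death, rose 10.6-fold, from 0.708 ± 0.171 to 7.52 ± 3.49 FPKM (limma adjusted p = 9.2e-06). Its mean was 9.72 FPKM in KO replicates 1 to 4 and 3.1 in KO replicates 5 and 6. No WT library reached 1 FPKM for Zbp1, so it entered the limma fit through the KO libraries alone. The RIG-I gene Ddx58 rose 1.54-fold (limma adjusted p = 0.0038), but its mean of 4.6 FPKM in KO replicates 5 and 6 was near the WT mean of 4.30, against 7.65 in KO replicates 1 to 4. The kinase gene Eif2ak2 rose 1.15-fold (adjusted p = 0.0077), the RNA-editing enzyme gene Adar 1.22-fold (0.019; 0.094 in an exact rank-sum test) and the signalling kinase gene Tbk1 1.16-fold (0.0019), all in limma. Prkra, a double-stranded RNA binding protein, fell 1.23-fold (limma adjusted p = 0.017). Tlr3 (limma adjusted p = 0.11), the adaptor gene Mavs (0.34), Ifih1 (exact permutation p = 0.0584) and Dhx58 (exact permutation p = 0.102) did not pass, and Nlrp1b was at most 0.01 FPKM.

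Upstream, both chains of the type I interferon receptor fell, while the transcription factor genes Stat2, Irf9 and Irf7 rose. Of 19 listed signalling genes 17 were tested in limma, and all 17 passed, 10 higher and 7 lower in KO (median log2 change 0.16). Over all genes tested 32.6% were higher, 30.9% lower and the median was 0.01. Usp18, among the 10, had no WT library at 1 FPKM and entered the fit through the KO libraries alone. Ifnar1 fell from 22.8 ± 1.61 to 11.1 ± 1.7 FPKM, 2.05-fold (limma adjusted p = 6.5e-07), and Ifnar2 from 27.8 ± 1.83 to 16.1 ± 2.66 FPKM, 1.73-fold (adjusted p = 1.5e-05). Both were lowest in KO replicates 5 and 6. Stat2 rose 1.93-fold to 7.46 ± 1.75 FPKM (limma adjusted p = 0.0002) and Irf9 1.38-fold to 5.57 ± 0.989 (adjusted p = 0.0031). Their means in KO replicates 5 and 6 were 5.46 and 4.52 FPKM, nearer the WT means of 3.86 and 4.04. Stat2 in KO replicate 5, at 4.33 FPKM, lay below the highest WT value of 4.39. Irf7, the interferon-induced factor whose translation Oasl1 is known to repress, rose 2.57-fold, from 0.603 ± 0.111 to 1.55 ± 0.46 FPKM (exact permutation p = 0.00216, adjusted 0.022). Irf1 was at 12.6 ± 0.567 and 14.2 ± 1.22 FPKM and only just passed (limma adjusted p = 0.045); it did not pass when any of 9 of the 12 libraries was left out.

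No interferon gene was measured at a level that could be compared. Of 10 listed ligand genes Ifna5 did not pass 0.06 FPKM and Ifne did not pass 0.13 FPKM in any library. The other 8, Ifnb1 among them, had no row under their symbols in the deposited table, so no level can be given.

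Of 20 other listed interferon-stimulated genes 14 were tested in limma, where 10 were higher, 1 was lower and 3 did not pass (median log2 change 0.6), beside the same 32.6% and 30.9% of all genes tested. The 5 with the smallest adjusted p in limma were Isg20, Isg15, Rtp4, Ifit1 and Xaf1. Isg15, the ubiquitin-like modifier, rose 8.52-fold to 9.21 ± 2.74 FPKM (adjusted p = 6.3e-07). Rtp4 rose 60.6-fold to 3.43 ± 1.43 FPKM (adjusted p = 1.4e-06), and Ifit1, which binds viral RNA ends, 12.7-fold to 10.3 ± 4.86 FPKM (adjusted p = 6e-06). Xaf1 rose 3.11-fold to 2.37 ± 0.564 FPKM (adjusted p = 6e-06). Rtp4 and Xaf1, like Parp14 among the 10 called higher, had no WT library at 1 FPKM. These genes entered the limma fit through the KO libraries alone. The nuclease gene Isg20 went the other way, from 9.04 ± 0.277 to 4.72 ± 0.738 FPKM, 1.91-fold lower (limma adjusted p = 5.6e-07). Of the 6 listed genes below the limma threshold, 2 passed the adjusted exact test as higher and 1 as lower. Over all genes below that threshold 7.42% passed as higher and 3.6% as lower. Ifi44 rose from 0 to a mean of 0.547 FPKM and Cmpk2 from 0.025 to 0.453 (exact permutation p = 0.00216, adjusted 0.022 for both). The antiviral GTPase gene Mx1 fell, from 0.197 ± 0.0393 to 0.015 ± 0.0138 FPKM (exact permutation p = 0.00216, adjusted 0.022). Among the 16 of these genes with a promoter window, 7 held an ISRE core.

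**Figure D5:**
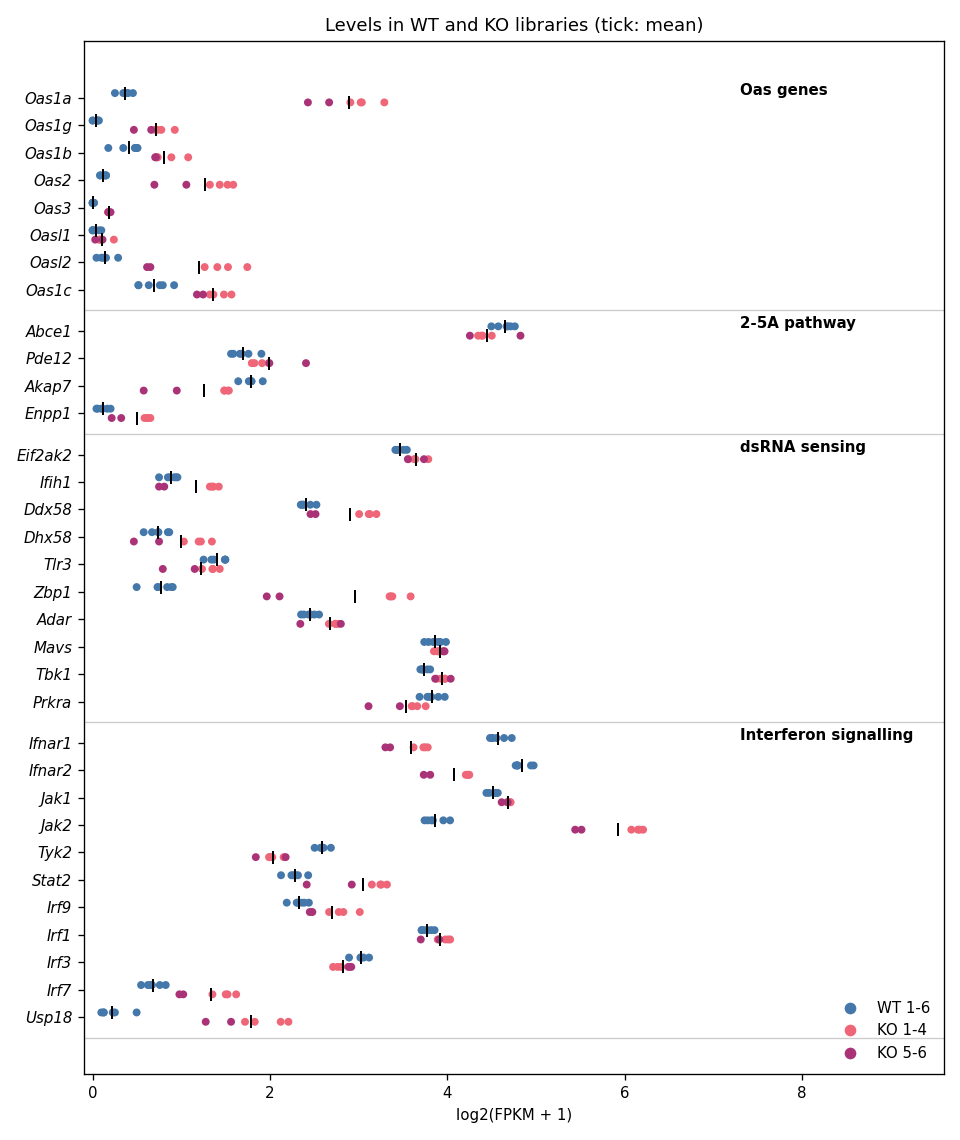
log2(FPKM + 1) of each library for the 7 synthetase genes and Oas1c, genes of the 2-5A pathway, sensors of double-stranded RNA and genes of interferon signalling (blue WT, red KO replicates 1 to 4, purple KO replicates 5 and 6; ticks are genotype means). KO points lie right of WT points for Oas1a, Oas2, Oasl2 and Zbp1, left of them for Ifnar1 and Ifnar2, and overlap them for Mavs.

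Markers of other cell types were examined beside these changes. Of 11 leukocyte markers 10 were in the table; their summed level was 39.1 to 47.5 FPKM in WT and 41.3 to 57.3 in KO, most of it Cd14. The markers Ptprc, Adgre1, Itgam, Fcgr1 and Cx3cr1 did not pass 0.04 FPKM in any library, while Cd68 rose from 1.62 to 8.19 FPKM and Csf1r from 0.707 to 3.05. Lyz2 also rose, from 0.1 to 1.07 FPKM (exact permutation p = 0.00216, adjusted 0.022). Cd79a had a mean of 0.207 FPKM in WT and 0.112 in KO, with overlapping values. Of 4 markers of plasmacytoid dendritic cells 3 were in the table; Ccr9 did not pass 0.03 FPKM, and the sum of 36.3 to 41.5 FPKM in WT and 46.3 to 87.8 in KO was almost all Bst2, itself interferon-stimulated. Of 6 endothelial markers Kdr rose from 0.00333 to 0.623 FPKM (exact permutation p = 0.00216, adjusted 0.022), while Pecam1 was at 0.137 and 0.0867, Vwf at 0.04 and 0.0767, and Cdh5, Tek and Tie1 did not pass a mean of 0.04; their sum was 0.13 to 0.3 FPKM in WT and 0.59 to 0.99 in KO. Of 6 fibroblast markers Pdgfra rose 9.63-fold to 10.4 FPKM and Col1a2 fell 1.73-fold to 173 FPKM (limma adjusted p = 4.7e-07 and 0.0051), Thy1 rose from 0.00333 to 0.202 FPKM (exact permutation p = 0.00216, adjusted 0.022), and Col1a1 and Dcn did not pass; the sums were 830 to 879 and 475 to 1101.3. Of 5 epithelial markers Cdh1 fell from 65 to 0.86 FPKM and Krt19 from 78.5 to 50.1 (limma adjusted p = 1.2e-13 and 9.4e-06), Krt18 rose from 0.0467 to 0.245 (exact permutation p = 0.00216, adjusted 0.022), and the sums were 140 to 148 and 40.3 to 59.7. The part of these cell markers and of KO replicates 5 and 6 in the rise of the synthetases was not tested. Nor was the part of the differing Xist and Y-linked gene levels. With KO replicates 1 to 4 only, the rise of Oas1a, Oas1b, Oas1g, Oas2, Oas3 and Oasl2 kept its direction and passed its test. In Oas1a, Oas1b, Oas1g, Oas2 and Oasl2, KO replicates 5 and 6 were the KO libraries nearest WT. Leaving them out widens the gap in these genes, so this setting does not bear on their part in the rise.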

How the data were processed

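The deposited values are FPKM made by the authors from paired-end reads, given to 2 decimals for 29462 genes in 12 libraries; their sum per library was 255538 to 281432, and the number of reads is unknown. The same deposited table holds the authors' ratio of WT over KO and the log2 of it, with a p-value and q-value from a test that the sources used here do not name. The submitters' processing notes list HISAT2 2.0.4, StringTie 1.3.4d and cutadapt 1.9, edgeR, DESeq2 and the build mm9, without roles. Per the labels' protocols strand was marked with dUTP.

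The pseudocount was 1. limma 3.58.1 (R 4.3.3) with a variance trend was fitted to genes that reached 1 FPKM in 6 or more libraries; lower genes had the exact permutation test (Python 3.11.15). Folds are ratios of mean FPKM and are given where the WT mean was at least 0.05; the log2(FPKM + 1) scale understates changes of low genes. Positions come from GENCODE M21 and promoters from RefSeq, both GRCm38 and thus another build than mm9. No column belonged to another sample. The labels do not say whether equal replicate numbers pair the libraries, and the main tests treated them as unpaired. Both tests were checked on simulated data.

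The members, gene lists and tests were chosen with earlier results of these data known. Named are all members, the other Oas, 2-5A and double-stranded RNA genes, selected signalling genes, the 5 listed interferon-stimulated genes with the smallest adjusted p, and the 10 genes most like Oas1a. Mx1, Ifi44, Cmpk2, Jak1, Samhd1, Ifitm3, Parp14, Usp18, Mki67, Xist, Cd68, Csf1r, Apol9a and Apol9b were added after their values were seen. So were the Y-linked genes and further markers of smooth muscle cells and leukocytes. A few listed genes are left unreported. Alternatives covered pseudocount, filter, scaling, variance model, test, replicate block and each library left out; KO replicates 1 to 4 only, and adjusted p-values of low members under left-out libraries and the block, were added after seeing the data.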

Additional observations from a re-analysis of the deposited data

Results flagged for a closer look

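The screen covered 63 groups of 6 libraries over 32 genes, the synthetases and genes related to them, without Oas1e. In 3 groups a library had a gap to its nearest neighbour that passed Dixon's critical value for groups of this size. Chance gives about 1 in 20. Pde12 was at 4.3 FPKM in KO replicate 5, against 2.47 to 2.98 in the other KO libraries. Adar was at 4.07 FPKM in KO replicate 5, against 5.34 to 5.96 in the others. Nlrp1b was at 0.01 FPKM in WT replicate 6 and listed at 0 in the other WT libraries, which is a single step of the deposited decimals. None of the 7 synthetase genes was among them.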

How the results depend on the processing

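Of 7 synthetase genes 1, Oas1a, was tested and called in limma; without a filter on low values 6 were called, with a filter on a mean of at least 0.5 FPKM 4, and with TPM rescaling 5, because more of them enter the test under these settings. Leaving out each library gave 1 in all cases, and 7121 to 8105 genes called in place of 7515. Oas1a kept its direction and its call in 23 of 23 alternatives (change of 2.45 to 4.44). Oas1b, Oas1g, Oas2, Oas3 and Oasl2 kept their direction in 22 of 22. Their exact p was at most 0.031 before adjustment, and their limma adjusted p at most 0.0019 where they entered that fit. Before adjustment 5 or 6 of the 6 low members passed when single libraries were left out. After adjustment over all low genes, Oas1b, Oas1g, Oas2 and Oas3 passed in 13 of 13 settings that left out libraries, and Oasl2 in 7, missing it (0.06 to 0.061) when any WT library was left out. Oasl1 missed 0.05 in 11 of 22 alternatives. Among these was the limma fit without a filter on low values (adjusted p = 0.11), and the others were exact tests at an unadjusted p of up to 0.19. With the replicate number as a block 6959 genes were called, Oas1a among them. In that setting 5 low members had the smallest p of the test (exact sign-flip p = 0.0312), which does not pass when adjusted (0.23). After subtraction of genotype means, same-numbered WT and KO libraries correlated at -0.058 to -0.273, which gave no sign of pairing. This cannot exclude pairing, because the split of KO replicates 5 and 6 from the others weighs on these values. Of 44 listed pathway genes tested 38 were called, 27 higher and 11 lower in KO, beside 32.6% and 30.9% of all genes tested. Under the alternatives 35 to 45 were called, with 45 in the fit without a filter on low values, where more genes enter. Jak1 (adjusted p = 0.43) and Irf1 (0.34) did not pass in limma with quantile normalization, which shifts the median change of all genes to -0.04; Abce1 (0.0035) and Tlr3 (0.021) passed as lower with it, and Eif2ak2 had an adjusted p of 0.05. Adar did not pass with the block (limma adjusted p = 0.054) or in an exact rank-sum test (0.094), and Ifitm3 not in the latter (0.18). Samhd1 passed as lower without KO replicate 5 (adjusted p = 0.0084) or KO replicate 6 (0.03). Depth in reads is unknown, and values of a few hundredths of an FPKM (WT Oas1g, Oas3 and Oasl1) carry no stated counting error.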

Other observations

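The 16-base run of paired ISRE cores that Oas1a, Oas1g and Oas1c share was also found in the promoter windows of Apol9a and Apol9b, apolipoprotein L genes. Apol9b was at 1.76 to 2.88 FPKM in WT and 3.53 to 8.59 FPKM in KO, without overlap, and rose 2.48-fold (log2 change 0.99 ± 0.17 SE, limma adjusted p = 0.00017). Apol9a was at 1.81 to 2.68 FPKM in WT and 1.48 to 3.74 FPKM in KO and did not pass (limma adjusted p = 0.17). Both were highest in KO replicate 1 and lowest in KO replicate 5 or 6. Both genes were chosen after their values were seen, and the sources used here do not say how reads shared by such related genes were assigned.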
